A study of Xenopus laevis with 42 samples.

Results

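The genes described here are 5 regulators of early somite and muscle formation in Xenopus laevis, msgn1, tbx6, myf5, myod1 and myog. They were chosen by name, and each is present as an L and an S copy, the homeologs of the long and the short subgenome of this allotetraploid frog. That gives 10 rows out of 44962 in the expression tables. Messenger RNA was sequenced from 42 samples of the D1 lineage, the dorsal-animal blastomere of the 8-cell embryo, whose descendants contribute to the neural plate. In explants the D1 blastomere had been taken out of the embryo. In progeny it had been left in place and marked by an injected fluorescent dye, and its labelled descendants were dissected. Beyond this the labels give no genotype, strain or treatment, and they name no step that would purify the dissected cells.

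Each tissue was collected at 8-cell (Nieuwkoop-Faber stage 4, 2 hours 15 minutes), 16-cell (stage 5, 2 hours 45 minutes), 32-cell (stage 6, 3 hours), blastula (stage 8, 5 hours), gastrula (stage 11, 11 hours), early neurula (stage 14, 16 hours) and mid neurula (stage 17, 18 hours). The samples of a group came from 3 frogs, and the deposited tables give 1 pooled TPM value (a level corrected for transcript length and scaled to the sum of each column) for each tissue and stage. No spread between frogs can therefore be given for any value, no test was possible, and the read depth is unknown. A difference of at least 1 in log2(TPM + 1), which is 2-fold on that scale, is called higher or lower, and a rise or a fall between stages is called by the same size. Explant and progeny levels come from tables scaled separately.

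The paraxial mesoderm is the tissue beside the notochord that is cut into somites, from which skeletal muscle forms. Its unsegmented part, the presomitic mesoderm, is specified by the bHLH factor Msgn1 (mesogenin 1, also known as Mespo in Xenopus) and the T-box factor Tbx6 under the influence of Wnt and FGF signals. The bHLH factors Myf5 and MyoD (myod1) commit cells to muscle and activate muscle genes together with E proteins. Myogenin (myog), another member of their family, acts later, in differentiating muscle. In frogs, myf5 and myod1 are expressed in the gastrula mesoderm, before any somite has formed.

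Before gastrulation the 10 rows were silent or nearly so in both tissues, apart from myod1.L. Over the 4 early stages, in order of age, that copy was at 2.47, 3.08, 2.55 and 1.40 TPM in explants. In progeny it was at 3.12, 1.91, 1.96 and 1.05 TPM. Thus 1 of the 10 rows reached 1 TPM in these early columns, in both tissues, and its level was lowest at blastula. The other 9 rows stayed at or under 0.376 TPM in explants and 0.509 TPM in progeny. The highest of these progeny values was that of myog.L at 16-cell. No row was 2-fold apart between the tissues, but only myod1.L reached 1 TPM. The other 9 rows were too low to be called apart, so for them this outcome was fixed in advance. Of all rows that reached 1 TPM, 8.8% were apart in 8-cell embryos, 3.69% at 16-cell, 4.18% at 32-cell and 3.98% in blastulae.

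**Figure D1:**
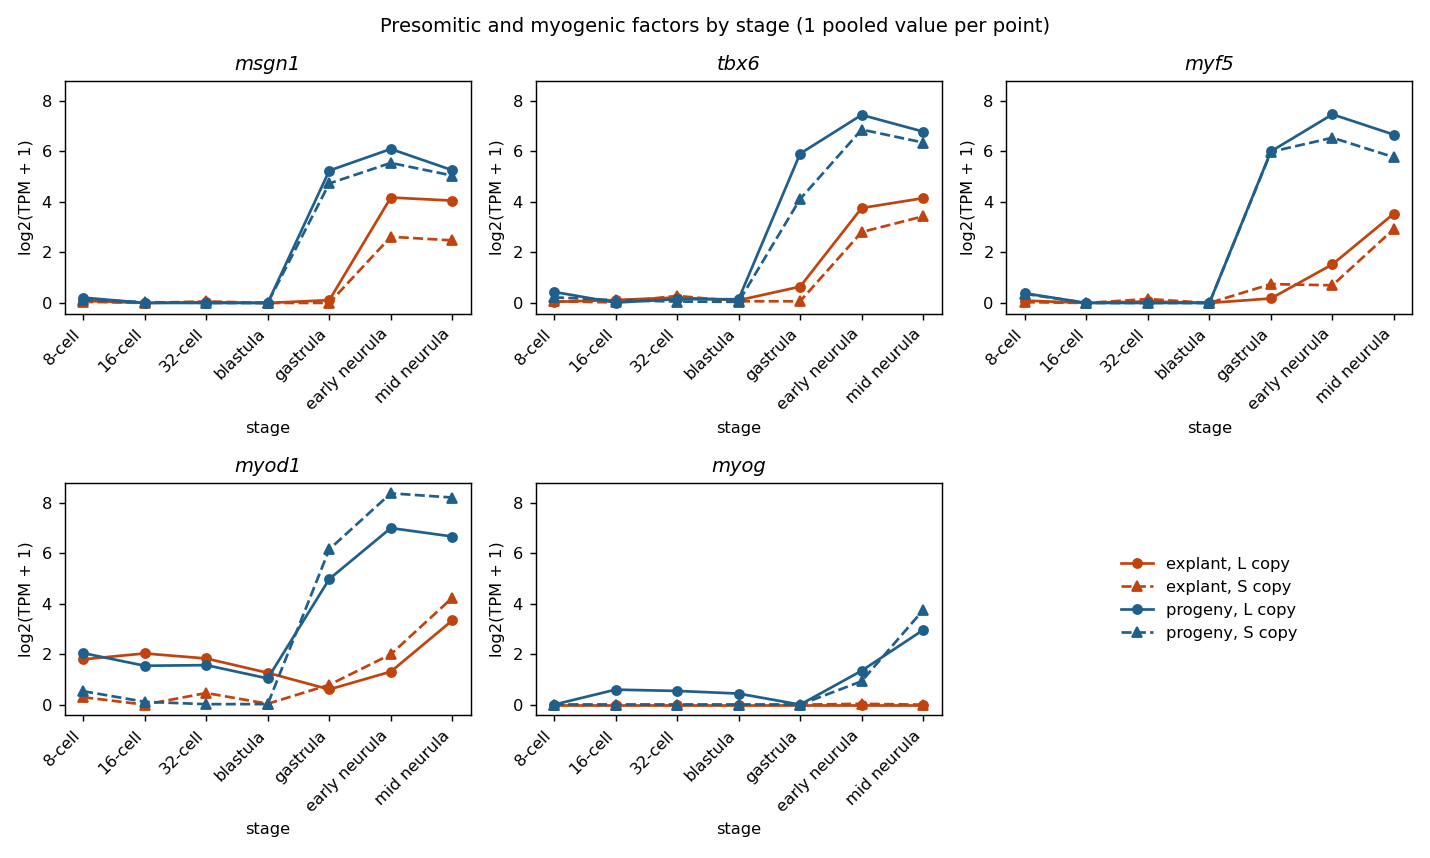
Level of each gene copy, as log2(TPM + 1) on the vertical axis, at the 7 stages on the horizontal axis. Explants are orange and progeny blue, L copies are solid lines with circles and S copies dashed lines with triangles, and each point is 1 pooled value without error. In progeny msgn1, tbx6, myf5 and myod1 climb at gastrula, whereas in explants msgn1 and tbx6 climb at early neurula and myf5 and myod1 mainly at mid neurula.

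The presomitic factors come first. The row msgn1.L was at 0.0795, 17.1 and 15.6 TPM in gastrula, early neurula and mid neurula explants. In progeny of these stages msgn1.L was at 36.8, 67.4 and 37.2 TPM. So the explants had next to no msgn1.L at gastrula, and by early neurula they had 25.3% of the progeny level. In bulk tissue such as this, fewer cells that express a gene and less RNA in each such cell cannot be told apart. The S copy was listed at 0 at gastrula in explants and was at 5.15 and 4.56 TPM at the neurula stages. In progeny msgn1.S was at 25.6, 45.7 and 32.0 TPM. Both copies were highest at early neurula in both tissues and lower again at mid neurula, by less than 2-fold.

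The T-box factor tbx6 followed a like course, except that its explant levels were higher at mid than at early neurula, by less than 2-fold. The row tbx6.L was at 0.563, 12.5 and 16.7 TPM in explants at gastrula, early and mid neurula. In progeny tbx6.L was at 59.2, 173 and 109 TPM. The S copy was at 0.0469, 5.99 and 9.78 TPM in explants and at 16.3, 116 and 80.6 TPM in progeny. As with msgn1, explants held under 1 TPM at gastrula and a clear level by early neurula, yet a smaller share of the progeny level, 7.24% for tbx6.L and 5.18% for tbx6.S.

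Of the muscle determination factors, myf5 was later in explants than either presomitic factor. The row myf5.L was at 0.131, 1.89 and 10.6 TPM in explants at gastrula, early and mid neurula. In progeny myf5.L was at 63.1, 176 and 100.2 TPM. The row myf5.S was at 0.678, 0.624 and 6.63 TPM in explants and at 62.2, 92.2 and 53.5 TPM in progeny. The explants thus had 1.07% of the progeny level of myf5.L at early neurula and 10.6% at mid neurula, and myf5.S passed 1 TPM in them only at mid neurula.

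Both copies of myod1 followed a course like that of myf5. The row myod1.L was at 0.520, 1.47 and 9.11 TPM in explants at these 3 stages, and at 30.5, 126 and 99.96 TPM in progeny. The row myod1.S was at 0.724, 2.98 and 17.8 TPM in explants. In progeny myod1.S was at 70.1, 329 and 293 TPM, the highest level of any of the 10 rows. Explants held 0.904% and 6.08% of the progeny level of myod1.S at the neurula stages, the lowest share among the rows that reached 1 TPM in both tissues.

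The differentiation factor myog was the last to appear. In explants myog.L was listed at 0 at all 7 stages, and myog.S was listed at 0 at 6 stages and at 0.0225 TPM at early neurula. In progeny myog.L was at 1.53 TPM at early neurula and 6.76 at mid neurula, and myog.S at 0.901 and 12.4 TPM. Both copies were listed at 0 in gastrula progeny, when the other 4 genes were already at 16.3 TPM or more. A value of 0 in these tables may stand for few reads or for an estimate that failed, so no fold is given.

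Within progeny, from blastula to gastrula, all 8 rows other than myog rose, by 3.94 (myod1.L) to 6.13 (myod1.S) on the log2 scale. Among all rows tested 19.7% rose over this interval. With median-of-ratios scaling, which equalises the typical row across columns, 26.8% did, and rises made up 52.1% of all calls instead of 35.2%. Of these 8 rows 7 reached 1 TPM only in the gastrula column, so that they could only be higher there. From gastrula to early neurula 6 of 10 rows rose, against 21% of all rows, namely both copies of tbx6 and myod1, myf5.L and myog.L. The gains were 2.75 for tbx6.S, 2.22 for myod1.S, 2.02 for myod1.L, 1.53 for tbx6.L, 1.47 for myf5.L and 1.34 for myog.L. The 3 other rows that reached 1 TPM differed by 0.86 (msgn1.L), 0.81 (msgn1.S) and 0.56 (myf5.S). From early to mid neurula only the 2 myog rows rose, by 1.61 for myog.L and 2.82 for myog.S, against 9.17% of all rows, or 6.78% with median-of-ratios scaling, when rises made up 68.8% of all calls instead of 84.0%. The other 8 rows had log2 changes of -0.84 (msgn1.L) to -0.17 (myod1.S) and were under 2-fold, in an interval in which 1.75% of all rows fell. With median-of-ratios scaling msgn1.L and myf5.L fell, by 1.05 and 1.02, as did 3.07% of all rows.

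Within explants no row rose from blastula to gastrula, where 18.2% of all rows did, or 24.8% with median-of-ratios scaling, when rises made up 51.7% of all calls instead of 34.5%. The row myod1.L, the one that reached 1 TPM, had a log2 change of -0.66. It reached 1 TPM at blastula only, so that it could only be lower at gastrula. The other rows were under 1 TPM in both columns and could not be called. That no row rose was therefore fixed in advance and is not a result about these genes. From gastrula to early neurula 6 of 10 rows rose, against 19.6% of all rows, or 24.7% with median-of-ratios scaling, when rises made up 56.4% of all calls instead of 44.1%. The gains were 4.06 for msgn1.L, 3.11 for tbx6.L, 2.74 for tbx6.S, 2.62 for msgn1.S, 1.35 for myf5.L and 1.21 for myod1.S. Each presomitic row thus gained more than either myogenic row. All 6 had been under 1 TPM at gastrula. Of the 10 rows 7 reached 1 TPM in this interval, each in the early neurula column only. They could therefore only be higher there, and the count of rises is not evidence of direction. From early to mid neurula the order turned: the 4 rows of myf5 and myod1 rose, by 2.01 (myf5.L), 2.23 (myf5.S), 2.03 (myod1.L) and 2.24 (myod1.S), against 9.25% of all rows. With median-of-ratios scaling 7.06% of all rows rose, and rises made up 72.5% of all calls instead of 85.8%. The rows of msgn1 and tbx6 had log2 differences of -0.15 (msgn1.S) to 0.62 (tbx6.S).

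Summing copies shows the same shift between gene classes. In explants msgn1 and tbx6 together were at 40.7 TPM at early neurula and 46.7 at mid neurula, and myf5 and myod1 together at 6.96 and 44.2 TPM. In progeny the first pair was at 138, 402 and 259 TPM at gastrula, early and mid neurula, and the second pair at 226, 724 and 547 TPM. The presomitic pair therefore made up 85.4% of the 4-gene total in explants at early neurula and 51.4% at mid neurula, against 35.7% and 32.1% in progeny of these stages and 37.9% in gastrula progeny.

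The central comparison is between explants and progeny at one stage. At gastrula 8 of the 10 rows were lower in explants, where 4.4% of all rows were. The 8 reached 1 TPM in progeny only, so that their passing the filter already required a difference, and the 2 myog rows were at 0 in both tissues. The log2 differences were -5.82 for myf5.L, -5.37 for myod1.S, -5.27 for tbx6.L, -5.24 for myf5.S, -5.13 for msgn1.L, -4.73 for msgn1.S, -4.37 for myod1.L and -4.05 for tbx6.S. Ranked from the lowest among 20432 rows, myf5.L was number 1 and tbx6.S, the last of the 8, number 23. Explant levels of all 8 rows were under 1 TPM at gastrula, and that of msgn1.S was listed at 0. At later stages those of myog.L and myog.S were listed at or near 0. Differences set against these levels depend on the pseudocount and are not folds. The order of the 8 rows at gastrula depends on it too. With a pseudocount of 0.1, tbx6.S was at -6.80, below tbx6.L (-6.48), myod1.S (-6.41), myf5.S (-6.32) and myod1.L (-5.62). The lowest of the 8 was still myf5.L, at -8.10.

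At early neurula 9 of 10 rows were lower in explants, against 15.7% of all rows, and the genes were spread out by class. The differences were -6.38 for myod1.S, -5.94 for myf5.L, -5.84 for myf5.S and -5.69 for myod1.L. Those of the presomitic rows were -4.06 for tbx6.S, -3.69 for tbx6.L, -2.92 for msgn1.S and -1.92 for msgn1.L. The row myog.L was at -1.34, and myog.S did not reach 1 TPM. Of the 9 rows, myf5.S and myog.L reached 1 TPM in progeny only. All 4 rows of myf5 and myod1 were thus further from progeny than the 4 rows of tbx6 and msgn1. In rank from the lowest of 21693 rows, myod1.S was number 28 and msgn1.L number 1288.

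At mid neurula all 10 rows were lower in explants, against 15.5% of all rows, and the 2 myog rows reached 1 TPM in progeny only. The differences were -3.97 for myod1.S, -3.74 for myog.S, -3.32 for myod1.L, -3.12 for myf5.L, -2.96 for myog.L, -2.92 for tbx6.S, -2.84 for myf5.S, -2.64 for tbx6.L, -2.57 for msgn1.S and -1.20 for msgn1.L. Apart from myog, every row stood nearer to progeny than at early neurula. The row closest to progeny was msgn1.L, with 41.9% of the progeny level, and the other 7 rows of msgn1, tbx6, myf5 and myod1 lay between 6.08% (myod1.S) and 15.3% (tbx6.L). Median-of-ratios scaling shifted explant minus progeny differences by 0.14 at each neurula stage and by -0.09 at gastrula, and no call on the 10 rows at these stages ended with it.

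**Figure D2:**
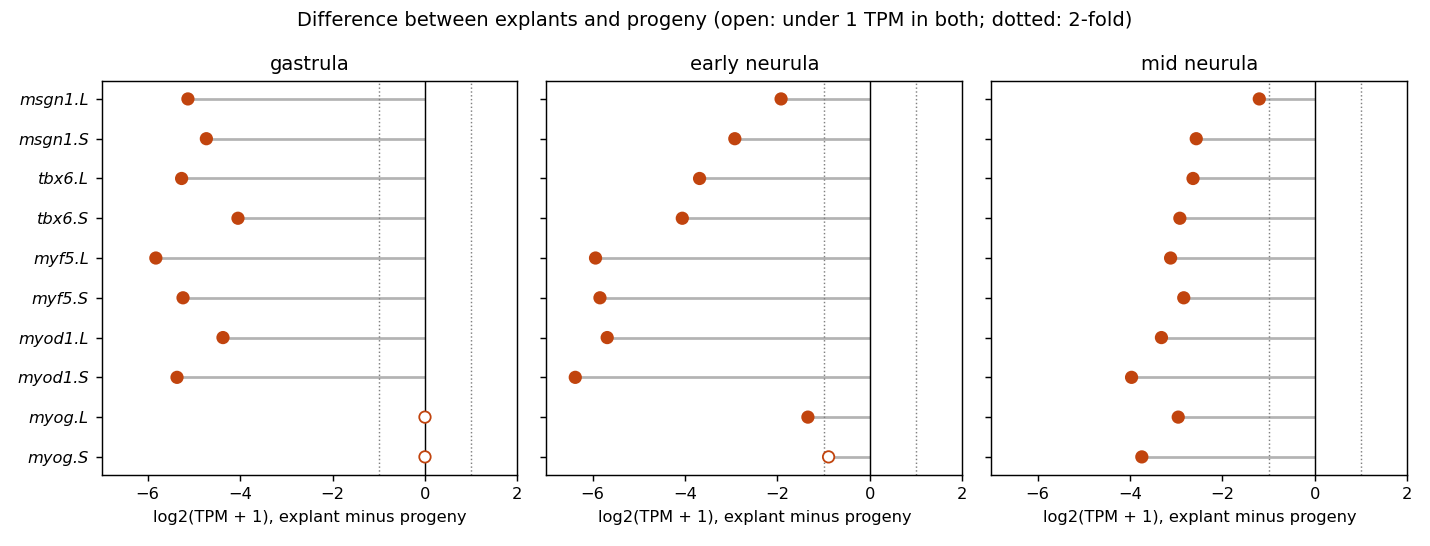
Difference in log2(TPM + 1) between explants and progeny on the horizontal axis, for the 10 gene copies on the vertical axis, at gastrula, early neurula and mid neurula. Filled points reached 1 TPM in at least 1 tissue, open points did not, and dotted lines mark 2-fold. The 8 rows other than myog lie between -5.82 and -4.05 at gastrula, and msgn1.L lies nearest to 0 among them at both neurula stages.

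**Figure D3:**
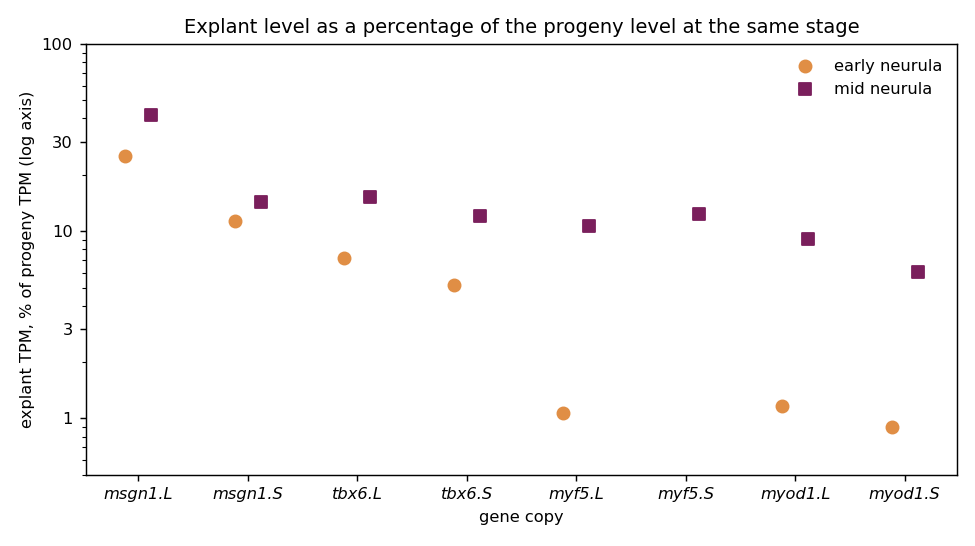
Explant TPM as a percentage of progeny TPM at the same stage, on a log axis, for the copies of msgn1, tbx6, myf5 and myod1. Circles are early neurula and squares mid neurula, each 1 pooled value, and myf5.S has no circle because it was under 1 TPM in explants. The copies of myf5 and myod1 sit between 0.904% and 1.17% at early neurula and between 6.08% and 12.4% at mid neurula.

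How far each tissue changed over the same interval was also compared, as explant gain minus progeny gain. From gastrula to early neurula 3 rows gained more in explants than in progeny by at least 1 log2 unit, msgn1.L at 3.21, msgn1.S at 1.81 and tbx6.L at 1.58, where 12% of all rows did. In the same interval 3 rows gained less, myog.L at -1.34, myod1.L at -1.31 and myod1.S at -1.01, against 15.4% of all rows. For myod1.S this ended with median-of-ratios scaling, at -0.85. Every factor row was under 1 TPM in gastrula explants. The values for this interval, those of myod1 among them, therefore depend on the pseudocount and do not compare folds. Another pseudocount was not tried on these differences of change. From early to mid neurula 6 rows gained more in explants, myf5.S at 3.01, myf5.L at 2.82, myod1.S at 2.41, myod1.L at 2.37, tbx6.S at 1.14 and tbx6.L at 1.05, against 4.47% of all rows. All 6 had negative log2 changes in progeny, which add to these values. For tbx6.L the change was 0.39 in explants and -0.66 in progeny, and for tbx6.S 0.62 and -0.51. Neither tbx6 row thus rose by 2-fold in explants. The 2 myog rows gained less, at -2.85 for myog.S and -1.61 for myog.L, against 3.68% of all rows. In explants both myog rows were at or under 0.0225 TPM at these stages. Their values are thus almost only the progeny rises, 2.82 for myog.S and 1.61 for myog.L, with the sign turned. In early neurula explants myf5.S was at 0.624 TPM, also under 1 TPM. The values of myog and myf5.S for this interval therefore depend on the pseudocount too and do not compare folds. The differences of change and the stage-by-stage differences share the same columns and are not separate evidence.

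Explants at mid neurula were also set against progeny of earlier stages. Compared with gastrula progeny, explants at mid neurula were lower in 7 rows, with tbx6.S under 2-fold at -0.68, where 21.5% of all rows were lower. They held 59.97% of the gastrula progeny level of tbx6.S, 42.4% of msgn1.L, 29.9% of myod1.L, 28.3% of tbx6.L, 25.4% of myod1.S, 17.9% of msgn1.S, 16.9% of myf5.L and 10.7% of myf5.S. Compared with early neurula progeny, 9 rows were lower, against 13.3% of all rows. For each of the 8 rows the oldest explants were thus below gastrula progeny, for tbx6.S by less than 2-fold.

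Both copies of msgn1, tbx6, myf5 and myod1 were lower in explants from gastrula on, but not by equal amounts. The S copy of myod1 carried most of the sum from gastrula on. The L share was 41.8%, 33.1% and 33.8% in explants at gastrula, early and mid neurula, and 30.3%, 27.7% and 25.4% in progeny. The explant share at gastrula rests on 0.520 TPM for L and 0.724 TPM for S, each under 1 TPM. At blastula, by contrast, the L copy made up 98.3% of myod1 in explants and 98.6% in progeny. For msgn1 the L copy made up 76.8% and 77.4% in explants at the neurula stages and 59.6% and 53.8% in progeny. The L share of tbx6 was 67.7% and 63.1% in neurula explants, and 78.4%, 59.97% and 57.5% in progeny from gastrula on. The L share of myf5 was 75.2% and 61.6% in neurula explants and 50.3%, 65.6% and 65.2% in progeny from gastrula on. No source used here says how reads were divided between copies of similar sequence, and a copy's value can hold reads of its partner.

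**Figure D4:**
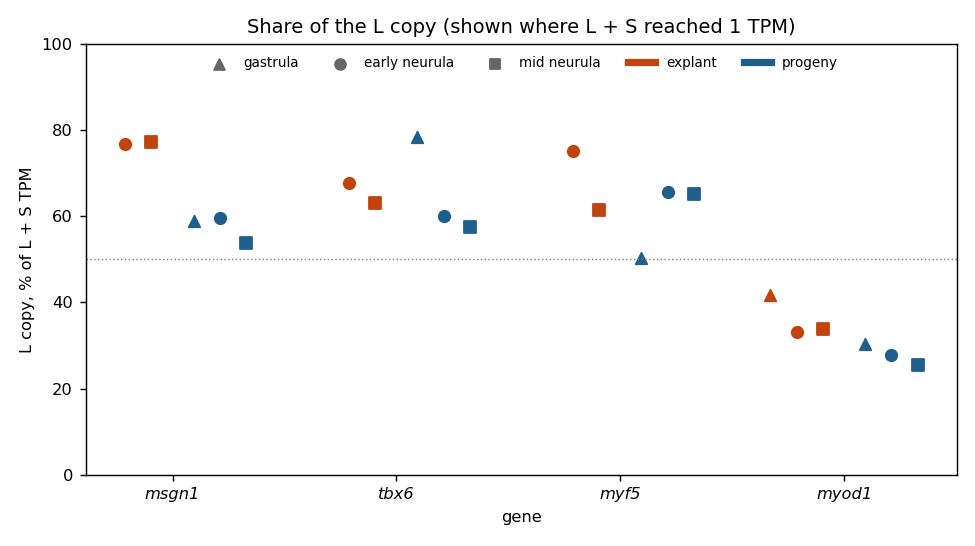
Share of the L copy in the sum of both copies, in percent of TPM, for msgn1, tbx6, myf5 and myod1. Explants (orange) stand left of progeny (blue), triangles are gastrula, circles early neurula and squares mid neurula, and the dotted line marks equal copies. The L copy is at 41.8% or less in every point of myod1 and at 50.3% or more in every point of the other 3 genes. The myod1 point of gastrula explants rests on 0.520 and 0.724 TPM.

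Neighbouring genes were looked up by name in RefSeq's annotation of the assembly Xenopus_laevis_v10.1. Both copies of myf5 lie next to myf6, a fellow myogenic factor also called MRF4, and tbx6.L lies next to tbx6r.L, a gene of similar name. The row myf6.L was at 0, 0 and 0.0690 TPM in explants and at 0.0353, 1.32 and 10.5 TPM in progeny at gastrula, early and mid neurula. The row myf6.S was at 0.0195, 0 and 0.0678 TPM in explants and at 0.296, 1.03 and 5.64 TPM in progeny. Both copies of myf6, like myog.L, were thus above 1 TPM in progeny from early neurula, and they stayed under 0.1 TPM in explants at these stages. The row tbx6r.L was at 0.198, 0.597 and 3.25 TPM in explants and at 4.65, 58.7 and 44.8 TPM in progeny. Unlike tbx6.L, tbx6r.L was already at 1.18 to 2.81 TPM in explants and 2.31 to 6.05 TPM in progeny before gastrulation, and its climb in progeny came at early neurula.

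For each of the 10 rows, the rows with the most similar pattern over the 14 columns were sought among 16438 rows that have a symbol and reach 5 TPM. Likeness was Pearson's r of log2(TPM + 1), which is a description over columns that share tissue, stage and scaling. The bHLH repressor row hes5_X2.S was nearest to msgn1.L (r = 0.994), msgn1.S (0.987) and tbx6.L (0.996). The segmentation gene mespb.S was among the nearest 3 rows for msgn1.S (0.985), and the other near rows were hes5_X1.L (0.983) and pskh2.S (0.980) for msgn1.L, tmem116.S for msgn1.S (0.985) and tbx6.L (0.991), and nuak1.L for tbx6.L (0.984). The row hes5_X2.S was at 0.541, 5.82 and 5.87 TPM in explants and 12.7, 21.4 and 16.9 TPM in progeny from gastrula to mid neurula. Nearest to tbx6.S was tmem116.S (0.995), followed by the Hox genes hoxb6.S (0.993) and hoxb3.S (0.990). The forkhead gene foxc2, a regulator of paraxial mesoderm, headed the list for myf5.L (foxc2.S, 0.993), myf5.S (foxc2.L, 0.993) and myod1.S (foxc2.S, 0.997). The row foxc2.S was at 0.514, 1.30 and 4.52 TPM in explants and 16.9, 67.7 and 49.4 TPM in progeny. The Wnt feedback gene axin2.L was among the nearest 3 rows of both myf5.L and myod1.S, at 0.991 for each, with foxa2.L (0.985) for myf5.L and lef1.S (0.991), a mediator of Wnt signals, for myod1.S. For myf5.S the others were sp5.S and irx3.L, both at 0.993. Among the rows nearest to myod1.L were dhh.L (0.979) and pax3.L (0.973), and nearest to myog.L were olfml2a.L (0.980), aadac.L (0.979) and palm2.L (0.972). For myog.S the values were 0.999 or more, led by prkag3.S, sox10.S and mybpc3.L, but myog.S reached 1 TPM in 1 column only, on which such an r rests. By Spearman's rho instead, the first rows of each factor ranked anywhere from number 23 (olfml2a.L for myog.L) to number 4763 (prkag3.S for myog.S), with hes5_X2.S at number 1113 for msgn1.L.

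Genes that act beside or before these factors were read from lists, of which counts are given for rows that reached 1 TPM. Posterior mesoderm regulators, among them Wnt and FGF ligands and T-box factors, were lower in explants in 29 of 31 rows at gastrula, 25 of 31 at early neurula and 18 of 28 at mid neurula. None was higher, except for 2 at early neurula with median-of-ratios scaling. The shares of all rows that were lower were 4.4%, 15.7% and 15.5%. Of the rows counted, 22, 24 and 25 reached 1 TPM in explants. The rest reached it in progeny only and could not be higher in explants. The list's median log2 differences were -2.43, -1.64 and -1.09, against 0.09, -0.16 and -0.19 for all rows. The Wnt-responsive factor sp5l.L was at 138, 38.2 and 44.6 TPM in explants and 745, 324 and 133 TPM in progeny. The brachyury copy t.S, a T-box factor of early mesoderm, was at 64.7, 23.3 and 19.6 TPM in explants and 499.8, 79.1 and 35.8 TPM in progeny. The row vegt.L was at 72.8, 7.79 and 4.28 TPM in explants and 423, 35.95 and 7.29 TPM in progeny. Unlike msgn1, tbx6, myf5 and myod1, these 3 rows were well above 1 TPM in gastrula explants. For vegt.L that level was a decline, from 209, 160, 153 and 97.7 TPM in explants at 8-cell, 16-cell, 32-cell and blastula. At those stages explants held at most 0.330 TPM of sp5l.L and 0.206 TPM of t.S.

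Presomitic and segmentation genes were lower in explants in 16 of 27 rows at gastrula, 31 of 33 at early neurula and 29 of 33 at mid neurula, and none was higher. The shares of all rows that were lower were 4.4%, 15.7% and 15.5%. Of the rows counted, 18, 22 and 27 reached 1 TPM in explants. The rest reached it in progeny only and could not be higher in explants. The list's medians were -0.999, -2.97 and -2.19. The protocadherin pcdh8.2.L, known as PAPC, which marks paraxial mesoderm, was at 24.9, 14.7 and 30.2 TPM in explants and 169.7, 245 and 143 TPM in progeny. Its S copy was at 1.97, 4.11 and 9.52 TPM in explants and 69.5, 129 and 59.4 TPM in progeny. The Notch feedback gene nrarp.L was under 2-fold at all 3 stages, at 197, 143 and 86.9 TPM in explants and 185, 264 and 164 TPM in progeny. For nrarp.S the differences were -0.32, -1.51 and -1.14.

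Myogenic cofactors were lower in explants in 9 of 19 rows at gastrula, 26 of 27 at early neurula and 27 of 31 at mid neurula, and none was higher. The shares of all rows that were lower were 4.4%, 15.7% and 15.5%. Of the rows counted, 15, 14 and 23 reached 1 TPM in explants. The rest reached it in progeny only and could not be higher in explants. The E protein gene tcf3.S, whose product pairs with MyoD and Myf5, was at 107, 111 and 119 TPM in explants and 189, 343 and 249.8 TPM in progeny. Its L copy was at 76.0, 55.0 and 56.1 TPM in explants and 117, 142 and 111 TPM in progeny. RNA of tcf3 was thus present in explants at all 3 stages, including gastrula, when the myogenic factors were under 1 TPM. Compared with progeny, tcf3.S was lower in explants at early and mid neurula (-1.61 and -1.07), and tcf3.L at early neurula (-1.35). Whether this bears on the myogenic factors was not tested. The muscle methyltransferase gene smyd1.L was at 0.0347, 0.138 and 5.05 TPM in explants and 0.118, 116 and 198 TPM in progeny. The row klhl31.L, of muscle cells, was at 0.0246, 0.217 and 2.67 TPM in explants and 0.0505, 98.0 and 166 TPM in progeny.

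Inhibitors of bHLH factors or of myogenesis held rows of either direction. In explants 3 of 12 rows were higher and 2 lower at gastrula, 4 and 2 of 14 at early neurula, and 2 and 5 of 14 at mid neurula, where median-of-ratios scaling gave 3 and 4. Among all rows 2.84%, 13.3% and 13.7% were higher and 4.4%, 15.7% and 15.5% lower, so that the 2 lower at early neurula and the 2 higher at mid neurula are near the share of all rows. Id proteins bind E proteins and keep them from DNA. The row id2.S was at 145, 568 and 429.9 TPM in explants and 31.2, 98.3 and 64.4 TPM in progeny, and id2.L was at 165, 249 and 209.7 TPM in explants and 51.9, 74.9 and 59.9 TPM in progeny. Both copies of id2 were higher in explants at all 3 stages, whereas id3 was under 2-fold throughout, with id3.S at 1094, 882 and 734 TPM in explants and 715, 732 and 549 TPM in progeny. The row id3.L had differences of 0.41, 0.08 and 0.54. These 4 rows are named because they have the highest TPM of the list, and none of its rows that were lower in explants is among them.

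Products of differentiated muscle were lower in explants in 4 of 9 rows at gastrula, 30 of 32 at early neurula and 38 of 39 at mid neurula, and none was higher. The shares of all rows that were lower were 4.4%, 15.7% and 15.5%. Of the rows counted, 5, 9 and 24 reached 1 TPM in explants, and the rest did so in progeny only. The rest could not be higher in explants, so for them that outcome was fixed in advance. Within explants 17 of 24 such rows rose from early to mid neurula, against 9.25% of all rows. Within progeny 30 of 31 rose from gastrula to early neurula, against 21% of all rows. From early to mid neurula 30 of 39 rose in progeny, against 9.17%, or 24 with median-of-ratios scaling, against 6.78%. In explants 9 rows of the list reached 1 TPM at early neurula and 24 at mid neurula. In progeny 9, 31 and 39 did at gastrula, early and mid neurula. Rows that passed the filter only through the later column had to be higher there. The sum over the 51 rows of the list was 27.5, 113 and 354 TPM in explants and 52.8, 5620 and 12564 TPM in progeny. A single row, the troponin gene tnni2.L, made up 87.2 TPM of the sum in early neurula explants. Without it the other 50 rows summed to 24.0, 25.9 and 298 TPM in explants and 43.7, 5464 and 12187 TPM in progeny, so that their explant sum was much the same at gastrula and early neurula. The cardiac-type actin actc1.S, an early muscle actin in frogs, was at 0.0531, 5.25 and 71.7 TPM in explants and 5.697, 1239.9 and 2179.7 TPM in progeny. The myosin light chain myl1.L was at 0.255, 0.958 and 20.2 TPM in explants and 3.65, 499 and 1029 TPM in progeny. For mylpf.S the differences were -8.10 and -5.40 at early and mid neurula, and for actc1.L -9.02 and -5.28. At gastrula both rows were under 1 TPM in both tissues. In early neurula explants mylpf.S was at 0.335 TPM and actc1.L at 1.39 TPM, so those differences depend on the pseudocount and are not folds.

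Markers of other tissues also differed between explants and progeny, though not all in the direction of these genes, and their part in the results was not tested. The counts of lower rows stand against 4.4%, 15.7% and 15.5% of all rows at gastrula, early and mid neurula. Neural plate markers, against which the labelled tissue was checked, were lower in explants in 4 of 16, 18 of 18 and 15 of 18 rows at gastrula, early and mid neurula. Their summed level was 1345, 379.6 and 501 TPM in explants and 1979, 1855 and 1369.7 TPM in progeny, with nrp1.L listed at 0 in gastrula explants and no row at 0 at the neurula stages. Notochord and organizer markers were lower in 9 of 14, 17 of 17 and 9 of 17 rows and summed to 725, 109 and 233 TPM in explants and 1493, 979.7 and 820.1 TPM in progeny. Endoderm markers were lower in 16 of 18, 11 of 16 and 3 of 15, with 0, 1 and 1 higher, or 2 at each neurula stage with median-of-ratios scaling, the 3 lower at mid neurula being near the 15.5% of all rows. They summed to 194, 68.4 and 81.6 TPM in explants and 1009, 241 and 112 TPM in progeny. Epidermal markers were higher in explants in 12 of 18, 16 of 21 and 16 of 22 rows, against 2.84%, 13.3% and 13.7% of all rows, and lower in 0, 2 and 3. Their sum was 2938, 11472 and 13066 TPM in explants and 1774, 4338 and 8036 TPM in progeny. Both krt5.7 copies of that list were listed at 0 in explants at the neurula stages, while in progeny krt5.7.L was at 1522 and 2618 TPM and krt5.7.S at 1339.98 and 2365 TPM. Without these copies the list summed to 1857, 11472 and 13066 TPM in explants and 712, 1476 and 3053 TPM in progeny. The row xepsin.S was listed at 0 in explants at gastrula and early neurula. Markers of ventral and lateral mesoderm and blood held rows of either direction, with 2 higher and 2 lower of 8, 4 and 8 of 14, and 4 and 6 of 15. Their sum was 354, 887 and 596 TPM in explants and 226, 270.1 and 218 TPM in progeny. Both copies of gata2 were higher in explants and carried that sum, and without them it was 59.1, 31.8 and 71.3 TPM in explants and 127, 115 and 155 TPM in progeny, lower in explants at each stage. The row gata2.L was at 130.2, 429.9 and 271 TPM in explants and 47.6, 79.0 and 32.6 TPM in progeny.

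**Figure D5:**
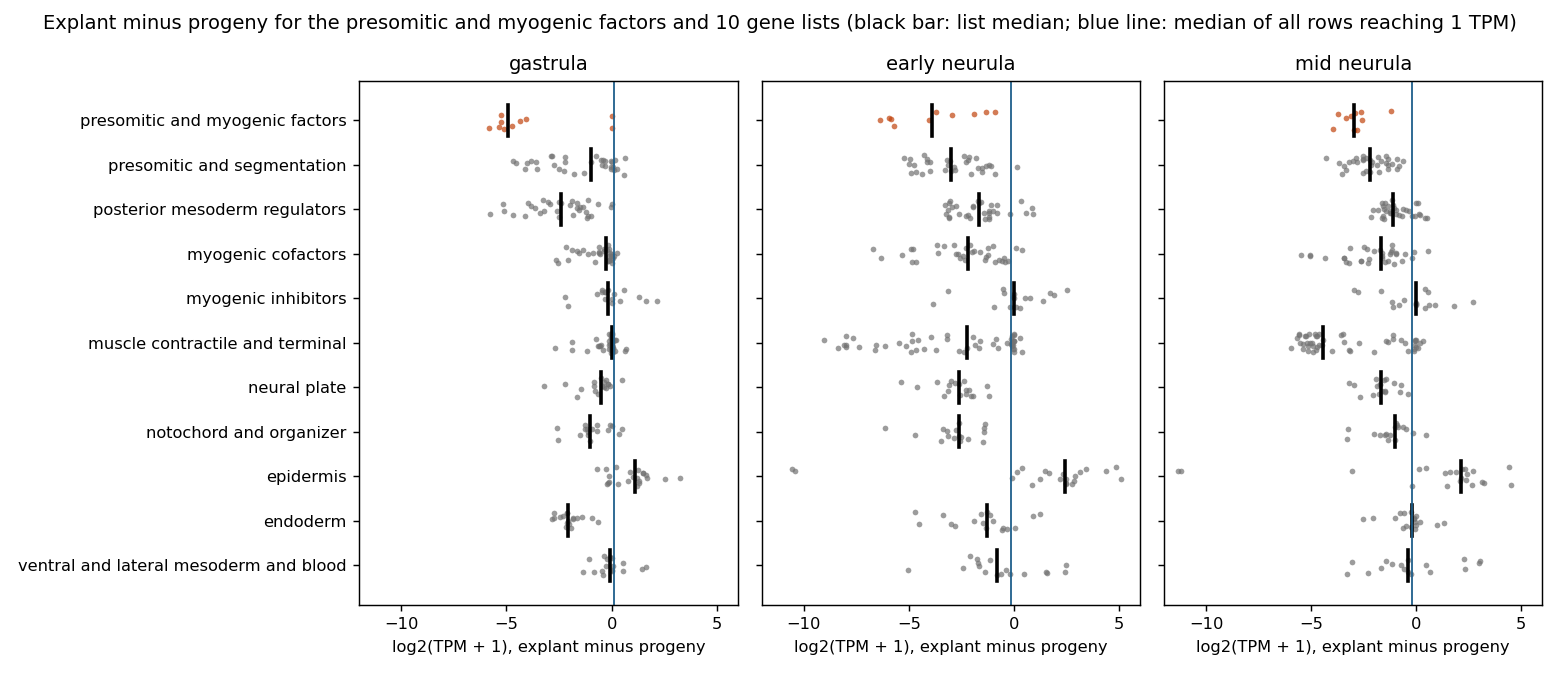
Difference in log2(TPM + 1) between explants and progeny on the horizontal axis for every row of 11 gene groups on the vertical axis, at gastrula, early and mid neurula. The 10 presomitic and myogenic factors are orange and the rows of the lists grey, black bars are group medians over all rows of the group, and the blue line is the median of all rows that reached 1 TPM. The medians of the 10 factors are -4.93, -3.87 and -2.94, and the median of differentiated muscle products is near 0 at gastrula and -4.41 at mid neurula.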

How the data were processed

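The authors deposited 2 tables of TPM values, 1 per tissue, with 7 columns each, 1 per stage, per the file headers. TopHat, Bowtie2, Cufflinks and Cuffdiff are named without versions in the submitters' processing notes. Not given in the sources used here are the build, the annotation and how 3 samples were combined. Columns sum to 995987 to 999092 TPM, and 28521 to 36651 rows were above 0. TPM keeps no read counts, so no interval for counting error is given. With 1 pooled value per group the planned limma test gave way to a rule of size, log2(TPM + 1) differing by at least 1, among rows reaching 1 TPM in a column compared. Median-of-ratios scaling over the 14 columns, other pseudocounts, filters and sizes, and summed homeologs were tried. The genes and the 10 lists were chosen with earlier results of these data known. Of their symbols 15 had no row. Up to 4 rows per list are named, those with the highest TPM in any column, and for each factor the 3 rows most like it were sought, of which 1 is not reported here. Outside that rule myf6 and tbx6r are named as neighbours, and nrp1.L and xepsin.S, chosen after their values were seen, because they were listed at 0. The list sums without krt5.7, tnni2.L or gata2 were likewise added after the values were seen. Calculations used Python 3.11.15, numpy 2.4.6 and pandas 2.3.3 and were tested on simulated data.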

Additional observations from a re-analysis of the deposited data

How the results depend on the processing

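Every log2 difference of a single factor between explants and progeny kept its direction under a pseudocount of 0.1, no filter, a filter of 5 TPM, median-of-ratios scaling, summed homeologs and a 4-fold size, wherever it was called. With the 4-fold size msgn1.L was no longer called at early neurula (-1.92) or mid neurula (-1.20), nor myog.L at early neurula (-1.34). With homeologs summed myog was called at early neurula (-1.75). A pseudocount of 0.1 widened the gastrula differences, for example to -8.10 for myf5.L and -8.00 for msgn1.S. It also widened those of myog, to -6.97 for myog.S and -6.10 for myog.L at mid neurula. At early neurula myog.L went to -4.03. Summing homeologs leaves 5 genes in place of 10 rows by construction. It gave 4, 5 and 5 genes lower in explants at gastrula, early and mid neurula. In progeny 4 genes then rose from blastula to gastrula and 1 from early to mid neurula, and in explants 3 rose from gastrula to early neurula and 2 from early to mid neurula. With the 4-fold size 3 rows rose in progeny from gastrula to early neurula and 1 from early to mid neurula. The other 51 counts of factors under these alternatives were within 1.5 times the values above. Of the counts over lists 291 were within that range and 69 moved by more, 34 of them with homeologs summed and 24 with the 4-fold size. Leaving out a replicate was not run, since no column holds 1 sample. No paired analysis was possible because the columns carry no replicate. Unknown depth limits values under about 1 TPM most.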
